A study of Mus musculus with 6 samples.

Results

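Metalloproteinases are zinc-dependent proteases that cut proteins at the cell surface and in the extracellular matrix, and the tissue inhibitors of metalloproteinases (TIMPs) bind their active sites. The genes described here are all those in the deposited expression table whose symbol starts with Adam, or with Mmp or Timp followed by a digit, without the neutrophil granule proteases Mmp8 and Mmp9. This rule, which uses names and no measured value, took 83 of 24054 genes. They comprise 33 genes named Adam with a number, the related secreted Adamdec1, 19 Adamts genes, 5 Adamts-like genes, 21 Mmp genes and 4 Timp genes.

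ADAM proteins span the membrane and many release the outer part of other membrane proteins, a step called shedding, although several members have no working protease site and serve in adhesion. ADAMTS proteins are secreted and act on matrix and plasma proteins, while ADAMTS-like proteins share their outer domains but lack the protease domain. MMPs cleave collagen, elastin and other matrix proteins and are either secreted or held at the membrane. In bone marrow and spleen, these enzymes are known for the release of cytokines and adhesion receptors, such as tumour necrosis factor by Adam17, and for movement of blood cells through the basement membrane.

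RNA-seq was done on c-Kit+ splenocytes of 6 mice, 1 library per mouse, after selection with magnetic beads against CD117 (c-Kit), a receptor of blood progenitors. All 6 mice were Flt3ITD/ITD, meaning that both alleles of the receptor gene Flt3 carried an internal tandem duplication. The 3 mice named AML, for acute myeloid leukaemia, were moribund and were Dnmt3afl/- MxCre, with 1 floxed and 1 null allele of the DNA methyltransferase gene Dnmt3a and a Cre recombinase under the interferon-inducible Mx promoter. The 3 mice named MPN, for myeloproliferative neoplasm, were Dnmt3afl/fl, and their titles name no Cre. Whether the floxed allele had been recombined is not stated, and a level per gene does not show which exons were read. The labels state no treatment and no age. Genotype, Cre and disease stage changed together between the groups and cannot be told apart. Each mouse has a number in accession order, which names it and pairs it with no other.

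Levels are in TPM, which scales reads to transcript length and to a fixed sum per library, and a change is the difference between group means of log2(TPM + 1), AML minus MPN, which understates the change of low genes. Tested with limma were genes that reached 1 TPM in 3 or more libraries, and a gene is called where its Benjamini-Hochberg adjusted p over all tested genes lies under 0.05. Dnmt3a, the targeted gene, stood at 11.5, 13.5 and 12.9 TPM in AML mice 1 to 3 and at 33.9, 29.3 and 33.4 TPM in MPN mice 1 to 3. The AML mean was 39.3% of the MPN mean (limma adjusted p = 0.000879), and the Kit transcript did not differ past the threshold (adjusted p = 0.104). Relative depth ranged from 0.749 in AML mouse 3 to 1.31 in AML mouse 1. The library of MPN mouse 1 came from a separate sequencing run. AML mice 1 and 2 were female by their Xist level, and the other 4 mice were male.

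Of the 83 genes, 12 were called, 5 higher and 7 lower in AML, all by at least 1 on the log2(TPM + 1) scale. The inhibitors Timp2 and Timp3, the secreted proteases Adamts6 and Mmp19, and the membrane protease Mmp16 were higher. The ADAM genes Adam11, Adam22, Adam23 and Adamdec1 and the proteases Mmp12, Mmp14 and Mmp25 were lower. The main sheddase genes Adam10 and Adam17 were abundant in both groups and did not pass.

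Only 25 of the 83 genes were abundant enough to be tested. Of the others, 19 were listed at 0 in every library, and no untested gene exceeded 1.30 TPM in any mouse. The 12 calls make 48.0% of the tested members, beside 30.1% of all 12223 genes tested. Higher calls took 20.1% and lower calls 10% of all genes tested, and calls of at least 1 on the log2 scale took 13.6%. For 16 of the 25 genes the AML and MPN mice did not overlap, against 50.9% of all genes tested. The median change was -0.14 over the 25 genes and 0.13 over all genes tested. Adamdec1, Mmp12 and Mmp16 were tested only because 1 group reached the minimum level, so they had to differ, and without them 9 of 22 genes were called, 4 higher and 5 lower.

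By family, no tested ADAM gene was called higher, and 4 of 11, with Adamdec1 counted among them, were called lower. Of 4 tested ADAMTS genes 1 was higher, and the 1 tested ADAMTS-like gene did not pass. Of 7 tested MMP genes 2 were higher and 3 lower, and both tested TIMP genes were higher. The summed level of the 34 ADAM genes was 284, 349 and 446 TPM in AML mice 1 to 3 and 590, 582 and 529 TPM in MPN mice 1 to 3. Every AML sum lay below every MPN sum. The summed level of the 4 TIMP genes was 29.9, 22.0 and 18.5 TPM in AML and 7.17, 4.69 and 6.63 TPM in MPN, so here every AML sum lay above. The summed levels of the 21 MMP genes, 31.1 to 37.1 TPM in AML and 36.5 to 47.8 TPM in MPN, overlapped. The sums of ADAMTS and ADAMTS-like genes overlapped as well, at 47.1 to 114 TPM in AML and 38.0 to 81.9 TPM in MPN. In such bulk samples, fewer cells of a type and less RNA per cell cannot be told apart.

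**Figure D1:**
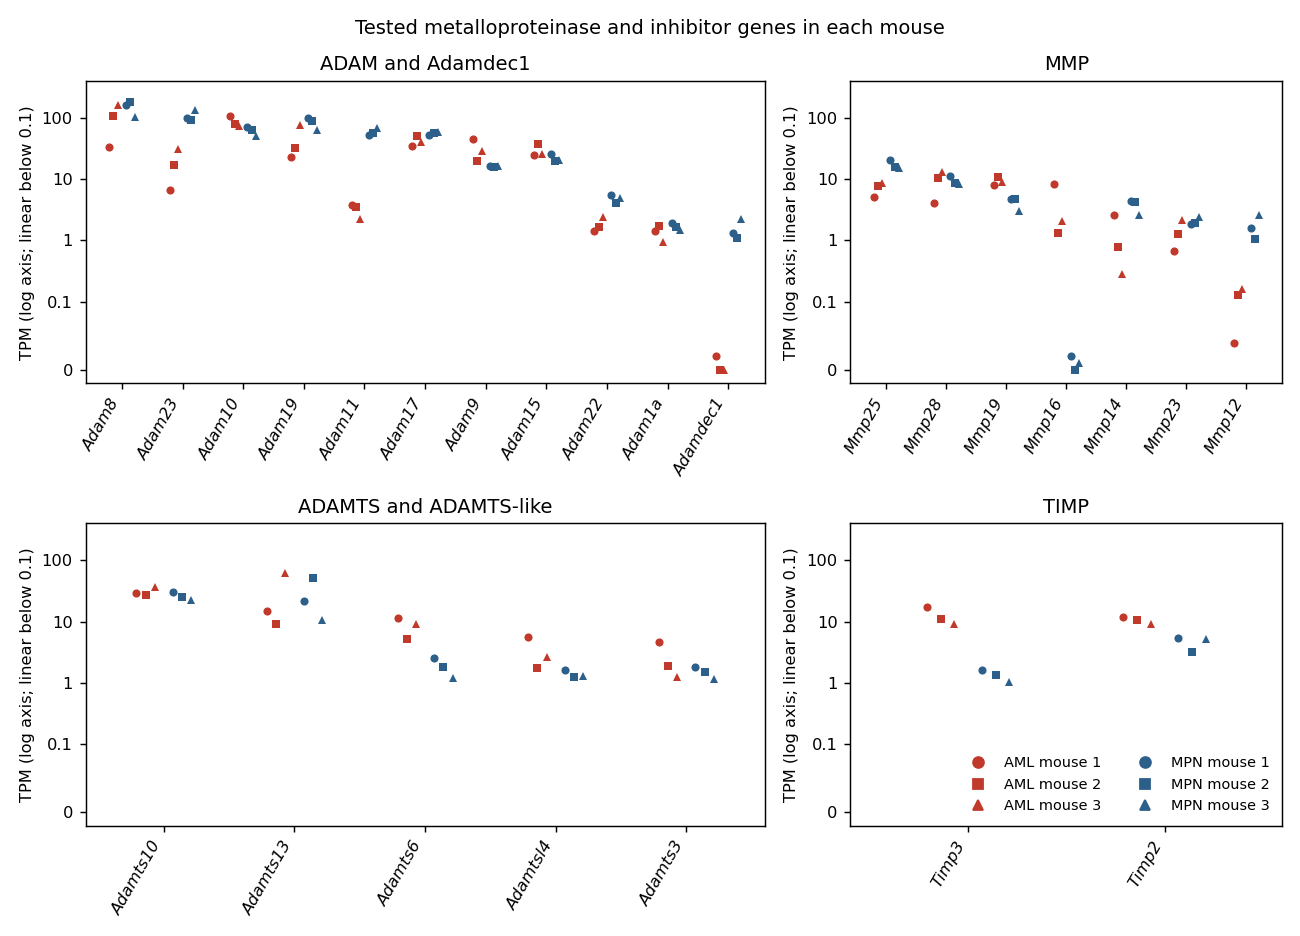
Level of each of the 25 tested genes in each mouse, in TPM on an axis that is logarithmic above 0.1 and linear below. Red points are the 3 AML mice and blue points the 3 MPN mice, with circles, squares and triangles for mice 1, 2 and 3, and panels hold the 4 families. Wide gaps between the groups show for Adam11, Adam23 and Adamdec1, for Mmp16 and Mmp12, and for Timp3.

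The protease site of many of these enzymes holds a short motif. It reads histidine, glutamate, 2 further residues, histidine, 2 further residues, glycine, 2 further residues and histidine. The histidines hold the zinc ion and the glutamate takes part in catalysis. This motif was searched in the longest complete coding sequence of each gene in GENCODE M21. The stretches below show how the 4 ADAM genes called lower differ at this site from the 5 most abundant ADAM genes in AML that were not called. Each is the coding strand, 5′ to 3′, and capitals mark the 5 codons of the fixed motif positions. For Adam11, Adam22, Adam23 and Adamdec1 the stretch is the one that protein alignment set against the motif of Adam19, for Adam11 by way of Adam22.
Adam8: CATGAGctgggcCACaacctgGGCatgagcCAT
Adam10: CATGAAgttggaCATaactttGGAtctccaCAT
Adam19: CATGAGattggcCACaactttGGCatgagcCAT
Adam17: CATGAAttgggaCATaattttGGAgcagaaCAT
Adam9: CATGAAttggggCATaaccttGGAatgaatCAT
Adam11: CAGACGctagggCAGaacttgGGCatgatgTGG
Adam22: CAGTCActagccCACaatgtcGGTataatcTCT
Adam23: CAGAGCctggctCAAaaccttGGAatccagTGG
Adamdec1: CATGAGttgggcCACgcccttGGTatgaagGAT

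Of the 19 ADAMTS genes 13 held this exact motif and 6 did not, and its absence does not by itself show an inactive protein. The motif was found in 20 of the 34 ADAM genes. Among the 11 that were tested, the 7 with the motif gave 0 calls and the 4 without it were all called lower, a count given as a description with no test. Adamdec1 among them entered the test only through the MPN mice and had to come out lower. The 0 calls depend on the threshold and the fit, since Adam9 had an adjusted p of 0.0508 by limma, and array weights called Adam9, Adam15, Adam17 and Adam19. Of the 5 fixed residues, Adam11 and Adam23 keep 1, Adam22 keeps 2, and Adamdec1 keeps 4 and differs in the last histidine. Adam11, Adam22 and Adam23 are known as surface proteins without protease activity that bind secreted LGI proteins in the nervous system. A different last zinc ligand does not show that Adamdec1 is inactive.

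Adam11 (GRCm38 chr11:102761439-102780262, plus strand) had the largest change of the 25 genes on the log2(TPM + 1) scale. With a pseudocount of 0.1, Mmp16 changed more, by 4.74 against -4.18 for Adam11. Adam11 stood at 3.80, 3.56 and 2.27 TPM in AML mice 1 to 3 and at 51.9, 56.1 and 68.6 TPM in MPN mice 1 to 3. All 3 AML mice were low and the groups lay far apart. The AML mean of 3.21 ± 0.823 TPM was 5.45% of the MPN mean of 58.9 ± 8.71 TPM (SD, n = 3 each), a log2 change of -3.84 ± 0.20 (SE) with an adjusted p of 0.000114 by limma. Adam11 rested, by the steps of the RPKM table, on 707 to 1959 reads in AML and 23368 to 30256 in MPN.

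Adam23 (chr1:63445891-63596276, plus strand) encodes a partner of integrins and LGI proteins. It stood at 6.59, 17.3 and 30.9 TPM in AML mice 1 to 3, against 98.5, 91.9 and 137 TPM in the MPN mice. The AML mice were all lower but spread over a 4.68-fold range, with mouse 1 lowest. The means were 18.2 ± 12.2 and 109 ± 24.2 TPM, and the log2 change was -2.72 ± 0.47 (SE, limma adjusted p = 0.0059). Against the MPN mean, single AML mice differed by -3.84, -2.57 and -1.77 on the log2 scale.

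Adam22, the third gene of this kind, is encoded at chr5:8072352-8368160 (minus strand) and was low throughout. It stood at 1.44, 1.68 and 2.39 TPM in AML and 5.48, 4.08 and 4.90 TPM in MPN, with no overlap. Its log2 change was -1.04 ± 0.20 (SE, limma adjusted p = 0.00797).

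Adamdec1, a secreted ADAM-like protein known from macrophages and dendritic cells, is encoded at chr14:68563380-68582095 (minus strand). It stood at 0.02 TPM in AML mouse 1 and was listed at 0 in AML mice 2 and 3, against 1.30, 1.08 and 2.26 TPM in MPN. The RPKM table holds 3, 0 and 0 reads for it in AML and 189, 151 and 331 in MPN. The log2 change was -1.31 ± 0.21 (SE, limma adjusted p = 0.00435).

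Levels of macrophage markers moved the same way as Adamdec1 and Mmp12. All 9 tested macrophage markers were lower in AML, beside 10% of all genes tested, although 1 of them entered the test only through 1 group, and the list's summed level was 18.9 to 53.4 TPM in AML and 152 to 261 TPM in MPN. Of 8 tested monocyte markers 7 were lower, beside the same 10%, and their sum was 956 to 3001 TPM in AML and 3761 to 4517 TPM in MPN. Csf1r is on both the macrophage and the monocyte list, so these counts share a gene. Of 9 tested dendritic cell markers 3 were lower and 1, Flt3, higher, beside 10% and 20.1% of all genes tested. Their sum was 454 to 1888 TPM in AML and 1877 to 2409 TPM in MPN. Fcgr1 among the monocyte and Siglech among the dendritic cell markers reached the minimum level only in MPN, so they had to differ. No marker of these 3 lists was at 0 in every AML mouse except Vsig4. The part of such cells in the change of these genes was not tested.

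The remaining ADAM genes did not pass. Adam8, a leukocyte ADAM, had the highest mean of all 83 genes in both groups, at 33.9, 106 and 163 TPM in AML mice 1 to 3 and 161, 180 and 103 TPM in MPN mice 1 to 3. The AML mice covered nearly the whole range, and the groups overlapped (log2 change -0.77, limma adjusted p = 0.294). Adam19, which is known to cleave neuregulins, stood at 22.9, 31.9 and 76.9 TPM in AML and 100.8, 88.7 and 64.2 TPM in MPN. AML mouse 3 lay within the MPN range, and the log2 change was -1.09 (limma adjusted p = 0.0823). Without AML mouse 3 it was -1.58 (adjusted p = 0.00397, with 0.00397 to 0.86 over its alternatives).

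Adam10, which cuts Notch receptors, stood at 107, 78.6 and 74.6 TPM in AML mice 1 to 3 and at 71.9, 63.5 and 51.4 TPM in MPN mice 1 to 3. The AML mice were all higher, by a narrow margin (log2 change 0.47, limma adjusted p = 0.0904). Adam17, the enzyme that releases tumour necrosis factor, stood at 34.7, 50.3 and 39.8 TPM in AML and 53.2, 56.7 and 58.0 TPM in MPN. Here the AML mice were all lower (log2 change -0.43, limma adjusted p = 0.066), and without AML mouse 2 the gene passed at -0.58 (adjusted p = 0.0265, with 0.0265 to 0.255 over its alternatives). Exons of Adam17 overlap Iah1 on the opposite strand, which stood at 29.7 to 42.2 TPM in AML and 42.0 to 49.3 TPM in MPN.

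Adam9, a widely expressed sheddase, stood at 44.6, 19.9 and 29.0 TPM in AML and between 15.9 and 16.5 TPM in all 3 MPN mice. The AML mice were all higher and far more spread than the MPN mice (log2 change 0.83 ± 0.27 SE, limma adjusted p = 0.0508). Without AML mouse 2 it passed, at 1.11 (adjusted p = 0.0146, with 0.0146 to 0.272 over its alternatives). Adam15, an ADAM with a role in adhesion, stood at 25.1, 36.9 and 25.9 TPM in AML and 25.8, 19.96 and 20.9 TPM in MPN, with overlap (adjusted p = 0.165). Adam1a, known from sperm, stayed between 0.95 and 1.90 TPM in all mice (adjusted p = 0.454), and its exons overlap Mapkapk5 on the same strand.

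In the order of mean levels, Adam8 at 100.7 TPM and Adam10 at 86.8 TPM led in AML, followed by Adam19 at 43.9 and Adam17 at 41.6 TPM, and each overlapped the next. In MPN the order was Adam8 at 148, Adam23 at 109, Adam19 at 84.6, Adam10 at 62.3, Adam11 at 58.9 and Adam17 at 56.0 TPM. These MPN neighbours overlapped too, and the first gap without overlap followed Adam17. Adam23 and Adam11 thus stood among the 5 most abundant of the 83 genes in MPN, and below the 5 most abundant in AML.

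**Figure D2:**
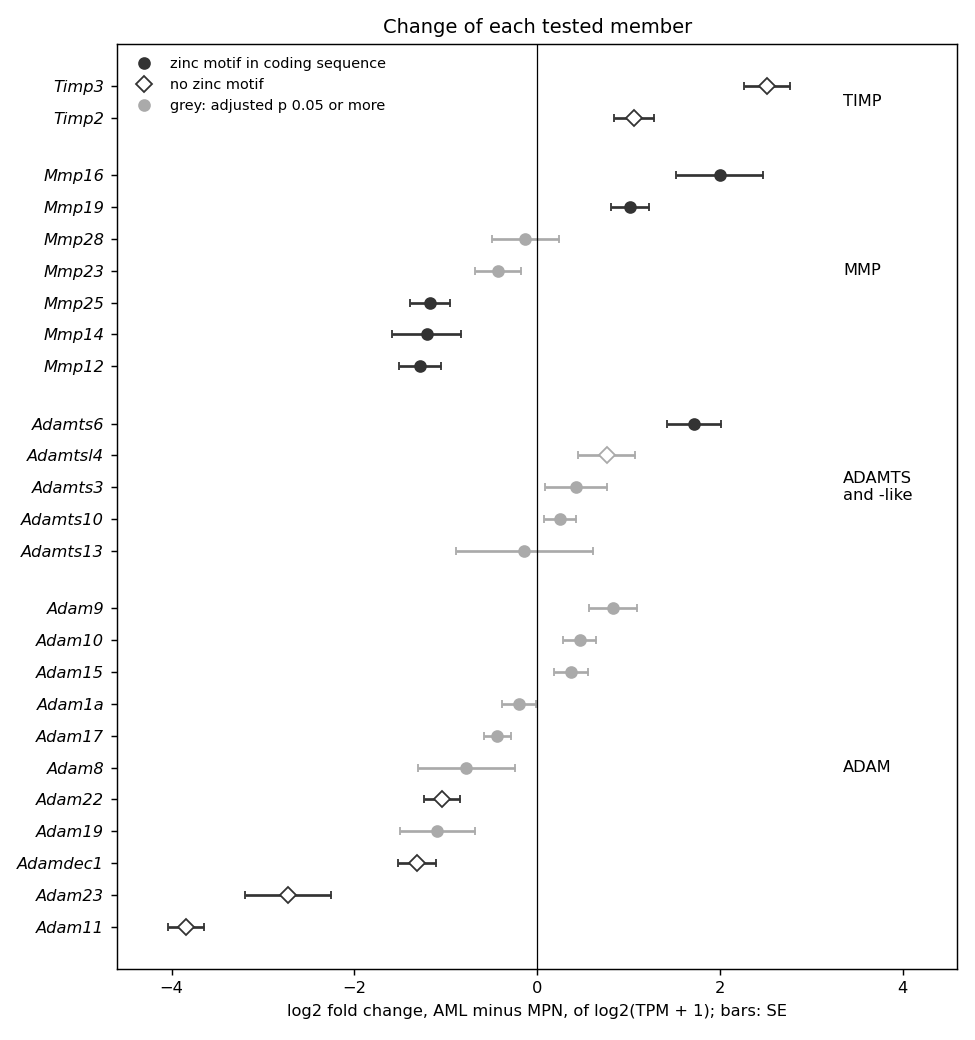
Difference between group means of log2(TPM + 1), AML minus MPN, for each of the 25 tested genes, with bars of 1 standard error. Filled circles have the zinc motif in their coding sequence and open diamonds do not, dark symbols passed the limma threshold, and grey ones did not. In the ADAM block all dark symbols are open diamonds on the negative side.

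Among ADAMTS genes, Adamts6, a secreted matrix protease closely related to Adamts10, was called higher. The gene (chr13:104287835-104496695, plus strand) stood at 11.4, 5.21 and 9.12 TPM in AML and 2.54, 1.80 and 1.20 TPM in MPN. The lowest AML mouse was above the highest MPN mouse, and the means were 8.56 ± 3.11 and 1.85 ± 0.671 TPM (SD, n = 3 each). The log2 change was 1.72 ± 0.30 (SE, limma adjusted p = 0.0060).

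Adamts10, which acts on fibrillin, stood at 29.5, 26.8 and 37.4 TPM in AML and 30.8, 24.9 and 22.5 TPM in MPN, with overlap (limma adjusted p = 0.312). Adamts13, the protease that cuts von Willebrand factor, ranged over 15.1, 9.05 and 61.9 TPM in AML and 21.6, 51.1 and 10.6 TPM in MPN. It was high in 1 mouse of each group (adjusted p = 0.90), and the transcript of its substrate, Vwf, did not pass either, with means of 12.01 (AML) and 7.25 TPM (MPN) and an adjusted p of 0.358. Adamtsl4, a fibrillin-binding protein without a protease domain, stood at 5.56, 1.75 and 2.69 TPM in AML and at 1.64, 1.23 and 1.32 TPM in MPN. All AML mice were higher (log2 change 0.76, adjusted p = 0.104), and without AML mouse 2 it passed at 1.04 (adjusted p = 0.0414, with 0.0414 to 0.466 over its alternatives). Adamts3, a procollagen protease, stood at 4.69, 1.90 and 1.24 TPM in AML and 1.79, 1.53 and 1.15 TPM in MPN, with an adjusted p of 0.365.

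The MMP genes moved in both directions, also among those held at the membrane. The motif was found in 20 of the 21 MMP genes and in all 7 that were tested, called or not. The sites of the 5 called MMP genes are shown beside those of the called ADAM genes, with capitals as above.
Mmp16: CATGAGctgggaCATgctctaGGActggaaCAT
Mmp14: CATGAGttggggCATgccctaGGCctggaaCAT
Mmp19: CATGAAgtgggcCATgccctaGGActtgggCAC
Mmp25: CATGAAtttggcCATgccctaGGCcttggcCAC
Mmp12: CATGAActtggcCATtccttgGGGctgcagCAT

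Mmp16 and Mmp14 both encode matrix proteases with a transmembrane anchor, and they were called in opposite directions. Mmp16 (chr4:17852893-18119145, plus strand) stood at 8.37, 1.30 and 2.04 TPM in AML and at 0.02, 0 and 0.01 TPM in MPN. All AML mice were higher, with mouse 1 far above the others, and the MPN level was near 0. The log2 change was 1.997 ± 0.48 (SE, limma adjusted p = 0.0197). The RPKM table holds 3523, 434 and 468 reads for Mmp16 in AML and 7, 3 and 9 in MPN. The call was lost without MPN mouse 1, 2 or 3, at nearly the same size (adjusted p = 0.0547, 0.0579 and 0.0704, with 0.00272 to 0.202 over its alternatives).

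Mmp14, which also activates the secreted precursor of Mmp2, is encoded at chr14:54431612-54445364 (plus strand). It stood at 2.58, 0.77 and 0.28 TPM in AML and 4.34, 4.17 and 2.63 TPM in MPN. AML mouse 1 lay just under the lowest MPN mouse, so the groups barely separated. The log2 change was -1.21 ± 0.38 (SE, limma adjusted p = 0.0476), and the call was lost under 7 of 14 alternatives, among them without AML mouse 2 or 3 and without any 1 MPN mouse (adjusted p of 0.0789 to 0.131, with 0.00108 to 0.131 over its alternatives). Mmp2 itself was not tested, at 0.17 to 0.86 TPM in AML and 0.19 to 0.27 TPM in MPN.

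Mmp25, a protease with a lipid (GPI) anchor known from neutrophils, is encoded at chr17:23628311-23645277 (minus strand). It stood at 5.08, 7.66 and 8.55 TPM in AML and 20.3, 15.5 and 15.3 TPM in MPN, with a clear gap between the groups. The means were 7.10 ± 1.80 and 17.0 ± 2.83 TPM (SD, n = 3 each), and the log2 change was -1.17 ± 0.22 (SE, limma adjusted p = 0.0077). Neutrophil markers lay lower as well, with 7 of 9 tested called lower, beside 10% of all genes tested, and a summed level of 6885 to 20610 TPM in AML and 30430 to 48250 TPM in MPN. That list includes Mmp8, at 24.4 and 49.7 TPM, and Mmp9, at 26.2 and 72.4 TPM in AML and MPN. The part of neutrophils in the Mmp25 change was not tested.

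Mmp12, the elastase of macrophages, is encoded at chr9:7344381-7369499 (plus strand). It stood at 0.04, 0.13 and 0.16 TPM in AML and 1.60, 1.07 and 2.65 TPM in MPN. Every AML mouse was low (log2 change -1.28 ± 0.23 SE, limma adjusted p = 0.00714). In reads these levels were 16, 41 and 40 in AML and 603, 386 and 838 in MPN.

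Mmp19, a secreted protease of basement membrane proteins, was higher in AML. The gene (chr10:128790910-128800824, plus strand) stood at 8.10, 11.04 and 9.07 TPM in AML and 4.70, 4.77 and 3.04 TPM in MPN. The groups did not overlap, and the log2 change was 1.02 ± 0.21 (SE, limma adjusted p = 0.0109). Its exons overlap Tmem198b on the opposite strand, which also rose, from 7.25 to 12.7 TPM (log2 change 0.74, adjusted p = 0.0119). The libraries were strand-specific per the labels, but nothing used here says whether the counting kept the strand. Exons of Adam8, Adam15, Adam19 and Mmp28 also overlap genes of the opposite strand.

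The other tested MMP genes did not pass. Mmp28, a secreted protease of epithelia and leukocytes, stood at 4.15, 10.5 and 13.2 TPM in AML and 11.3, 8.76 and 8.21 TPM in MPN (limma adjusted p = 0.805). Mmp23 stood at 0.67, 1.26 and 2.16 TPM in AML and 1.85, 1.96 and 2.46 TPM in MPN, with an adjusted p of 0.232. In both genes AML mouse 1 was the lowest mouse and the groups overlapped.

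Both abundant inhibitors were higher in AML. Timp3, which binds to the matrix and inhibits Adam17 and several ADAMTS enzymes beside MMPs, is encoded at chr10:86300372-86349506 (plus strand). It stood at 17.6, 11.2 and 9.29 TPM in AML and at 1.60, 1.34 and 1.04 TPM in MPN. The lowest AML mouse was well above the highest MPN mouse, and the mean was 9.55-fold higher, at 12.7 ± 4.34 against 1.33 ± 0.28 TPM (SD, n = 3 each). The log2 change was 2.52 ± 0.25 (SE, limma adjusted p = 0.000664). Its exons overlap Syn3 on the opposite strand, which stood at 0.98 to 1.47 TPM and did not pass (adjusted p = 0.524).

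Timp2, which inhibits MMPs and also takes part in the activation of Mmp2 by Mmp14, is encoded at chr11:118301069-118355740 (minus strand). It stood at 12.1, 10.8 and 9.06 TPM in AML and 5.44, 3.22 and 5.27 TPM in MPN. The groups did not overlap, and the log2 change was 1.06 ± 0.22 (SE, limma adjusted p = 0.011). Timp1 stayed at or below 0.32 TPM in every mouse, with 0 to 13 reads in AML and 11 to 16 in MPN, and Timp4 was listed at 0 in all 6.

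The stromal and endothelial markers, which include genes of cells that secrete TIMPs and collagens, did not move as one. Their summed level of 99.5 to 117 TPM in AML and 43.4 to 55.0 TPM in MPN was carried by Pecam1, an adhesion protein that blood cells also make (73.8 and 28.3 TPM on average). Pecam1 and the pericyte receptor Pdgfrb (18.95 and 1.72 TPM) were called higher, Vwf did not pass, and Kdr, an endothelial receptor tested only through its MPN level, was lower (0.137 and 9.41 TPM). The untested Tek, Cdh5, Col1a1, Col1a2, Col3a1 and Pdgfra all had lower means in AML, at most 0.547 TPM there and 0.967 TPM in MPN. The fibroblast marker Dcn was at 0 in all AML mice and averaged 0.0567 TPM in MPN, and Lum was at 0 in all 6 mice.

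Other lists were higher in AML only in part or not at all. Of 7 progenitor markers 3 were higher and 1 lower, beside 20.1% and 10% of all genes tested. Their sums overlapped, at 2425 to 5809 TPM in AML and 2259 to 3043 TPM in MPN. The higher ones were Cd34 (338 TPM in AML and 49.6 in MPN on average), Gata2 (55.9 and 7.81 TPM) and Myb (255 and 98.0 TPM). The lower one was Ptprc, the pan-leukocyte CD45 (181 and 380 TPM). Kit (119 and 147 TPM) and Spi1 (275 and 381 TPM) did not pass, although every AML mouse lay below every MPN mouse. Mpo did not pass either, and its groups overlapped. Megakaryocyte and platelet markers summed to 99.6 to 151 TPM in AML and 50.1 to 80.5 TPM in MPN, with 3 of 8 called higher and 0 lower, a share near the 30.1% called among all genes tested. Mast cell and basophil markers, which share Gata2 with the progenitor list, summed to 126 to 249 TPM in AML and 37.0 to 85.7 TPM in MPN. Of 5 tested 3 were higher (Cpa3, Mcpt8 and Gata2) and 0 lower, beside 20.1% and 10% of all genes tested. Prss34 and Ms4a2 did not pass, and the untested Fcer1a overlapped. The untested Cma1 (0.0467 and 0.717 TPM) and Tpsb2 (0.0133 and 0.42 TPM) were lower in every AML mouse than in any MPN mouse. Of 9 tested erythroid markers 0 were higher and 1, Klf1, was lower, beside 20.1% and 10% of all genes tested. Their sums overlapped, at 72.6 to 1256 TPM in AML and 475 to 2998 TPM in MPN. The part of any of these cells in the higher TIMP levels was not tested.

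RefSeq promoters, from 250 bases before to 50 bases after the start, were read on GRCm38.p6 for 52 of the 83 genes and 7 of the 12 called genes. The 2 printed here belong to the called genes with the largest log2(TPM + 1) change in each direction among those 7, and capitals mark CpG, the dinucleotide on which Dnmt3a acts. They are shown 5′ to 3′ on the plus strand, on which both genes lie. Adam23, at chr1:63445641-63445940, holds 31 CpG, and Timp3, at chr10:86300162-86300461, holds 24.
Adam23: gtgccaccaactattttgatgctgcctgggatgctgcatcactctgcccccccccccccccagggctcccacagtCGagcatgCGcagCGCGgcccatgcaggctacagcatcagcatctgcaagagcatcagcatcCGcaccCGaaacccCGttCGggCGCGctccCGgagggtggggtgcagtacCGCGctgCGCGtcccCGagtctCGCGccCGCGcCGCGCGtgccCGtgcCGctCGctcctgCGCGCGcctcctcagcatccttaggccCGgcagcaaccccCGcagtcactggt
Timp3: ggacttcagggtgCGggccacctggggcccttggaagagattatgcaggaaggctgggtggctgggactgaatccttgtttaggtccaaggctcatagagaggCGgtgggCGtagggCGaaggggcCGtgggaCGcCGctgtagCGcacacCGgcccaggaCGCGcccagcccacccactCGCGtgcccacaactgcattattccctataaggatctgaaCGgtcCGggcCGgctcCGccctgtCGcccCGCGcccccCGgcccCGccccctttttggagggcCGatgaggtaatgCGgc

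The median over 32817 promoters was 7 CpG, and 10.6% held at least as many as Adam23 and 20% at least as many as Timp3. Promoters with more CpG than the median thus occurred among genes called in both directions. Timp2 held 25 CpG, Adam22 19, Mmp25 18 and Mmp14 10, and 18.4%, 28%, 29.7% and 43.4% of promoters held at least as many. The 2 Mmp12 entries held 0 and 3. Methylation was not measured, and CpG counts say nothing of it. The letters TGANTCA, an AP-1 motif, were found on either strand in 7.81% of all promoters and, among the called genes, in 1 of the Mmp12 entries. The letters TTCNNNGAA, a STAT motif, were found in 8.29% of all promoters and in none of those of the 7 called genes.

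Most of the 12 called members varied more among AML than among MPN mice. The range of log2(TPM + 1) was wider over AML than over MPN mice for 8 of the 12 called genes. AML mouse 1 lay farthest from the MPN mean for 8 of the 12, and AML mice 2 and 3 for 2 each. These counts were not made over all called genes, so they mark no trait of the members. The range is small where a group lies near 0, as over MPN mice for Mmp16 (0.0286) and over AML mice for Adamdec1 (0.0286). Mmp14, in contrast, differed by -0.38 in AML mouse 1, -1.39 in mouse 2 and -1.86 in mouse 3. For Mmp16 the same differences were 3.21, 1.19 and 1.59, and for Timp3 they were 3.004, 2.39 and 2.15.

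Within the sequencing run of the other 5 libraries, without MPN mouse 1, 4 genes were called higher and 6 lower, and the calls lost were Mmp16 and Mmp14. With a term for sex, which leaves the male AML mouse 3 alone to stand for its group and takes its spread from the other mice, 2 were called higher and 3 lower. Adam11, Adamdec1, Mmp14, Timp3 and Adamts6 passed there.

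Genes that were not tested had low levels. Among ADAMs, Adam4, Adam12, Adam28 and Adam33 had the highest values, with Adam33 reaching 1.30 TPM in AML mouse 1 and at most 0.73 TPM elsewhere. Adam1b, Adam2, Adam3, Adam5, Adam7, Adam21 and Adam32 stayed at or below 0.24 TPM. Among the ADAMTS genes, Adamts1, Adamts2, Adamts4, Adamts5, Adamts7, Adamts8, Adamts9, Adamts12 and Adamts15 reached at most 0.14 TPM, and Adamts14 0.63 TPM. The ADAMTS-like genes Adamtsl1, Adamtsl2, Adamtsl3 and Adamtsl5 reached at most 0.54 TPM. Among MMPs, Mmp11, Mmp17 and Mmp15 reached 0.99, 0.88 and 0.35 TPM, Mmp27 reached 0.37 TPM, and the collagenase Mmp13, Mmp20 and Mmp21 at most 0.07 TPM. The stromelysins Mmp3 and Mmp10 and the collagenases Mmp1a and Mmp1b were listed at 0 in every library, as were Adam6a, Adam18, Adam20, Adam24, Adam25, Adam26a, Adam26b, Adam29, Adam30, Adam34, Adam39, Adamts16, Adamts18 and Adamts19.

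Read counts show how many reads lie behind such low values. Mmp7, a small secreted protease also called matrilysin, was listed at 0 TPM in all AML mice and at 1.24, 0.95 and 0.46 TPM in MPN, with 5, 0 and 0 reads in AML and 73, 55 and 36 in MPN. Exons of Mmp7 overlap AV064505 on the opposite strand, and whether all these reads belong to Mmp7 was not tested. Adam4 rested on 20, 26 and 21 reads in AML and 86, 64 and 75 in MPN. Adamts20 rested on 363, 176 and 140 reads in AML against 19, 34 and 8 in MPN, and Adamts17 on 356, 475 and 148 against 114, 100 and 103. AML and MPN mice did not overlap in any of the 4, and each passed when no minimum level was asked, with log2 changes of -0.89, -0.43, 0.51 and 0.51 (limma adjusted p = 0.0118, 0.00893, 0.00851 and 0.0457). Adam6b passed there as well (adjusted p = 0.0409), but it has a near copy, Adam6a, and its value is uncertain.

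Some genes near 0 in TPM have many reads in the RPKM table. Mmp24, at or below 0.18 TPM, has 678 to 1118 reads there, and its exons overlap BC029722 on the opposite strand, which stood at 28.5 to 35.5 TPM. Adamts7, at or below 0.04 TPM, has 225 to 535 reads. Its exons overlap Tbc1d2b on the opposite strand, which stood at 18.6 to 44.1 TPM. The source of these reads was not tested.

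**Figure D3:**
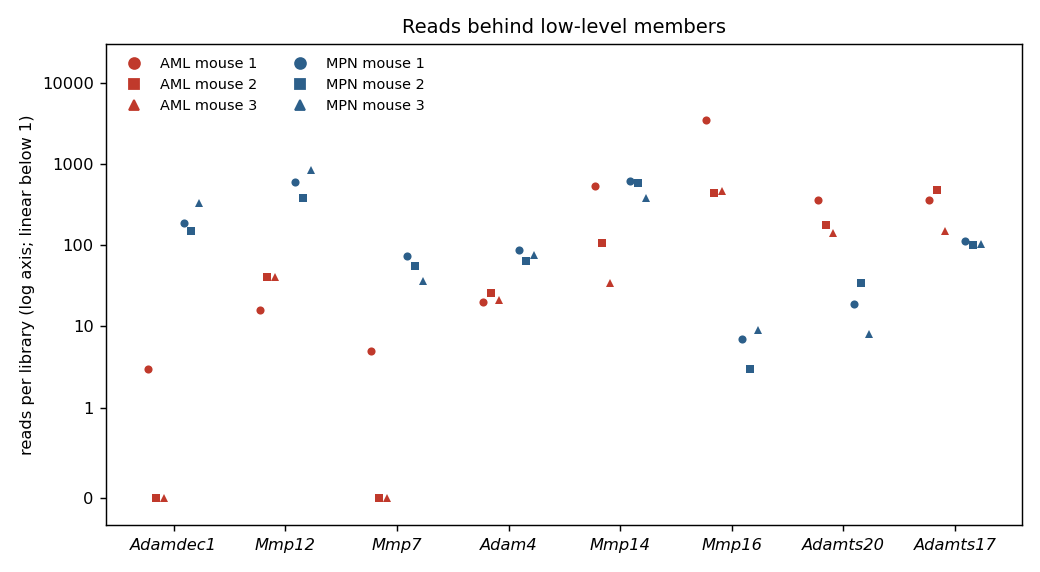
Reads per library recovered from the RPKM table, on an axis that is logarithmic above 1, for 8 genes with low levels. Colours and symbols are those of the plot of TPM by mouse. Adamdec1, Mmp12, Mmp7 and Adam4 have more reads in every MPN mouse than in any AML mouse, and Mmp16, Adamts20 and Adamts17 the reverse, while Mmp14 overlaps in reads.

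Genes that regulate, inhibit or supply substrates to these enzymes were read from 4 lists. Of 15 tested shedding regulators and protease activators, 4 were higher and 1 lower, 33.3% beside 30.1% of all genes tested. Tspan33 and Tspan5, tetraspanins that escort Adam10, were called in opposite directions. Tspan33 stood at 51.5, 31.3 and 52.3 TPM in AML and 118, 121 and 98.9 TPM in the MPN mice (log2 change -1.34, limma adjusted p = 0.00397). Tspan5 stood at 21.9, 19.1 and 13.5 TPM in AML and 11.7, 8.19 and 9.85 TPM in the MPN mice (log2 change 0.80, adjusted p = 0.0296). In neither did the groups overlap.

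Furin, the convertase that removes the inhibitory propeptide of many ADAMs and membrane MMPs, was 87.7, 50.5 and 62.5 TPM in AML and 40.9, 35.2 and 35.4 TPM in the MPN mice (log2 change 0.80, limma adjusted p = 0.0231). Frmd8, which stabilises the complex of Adam17 with its carrier iRhom, was 88.3, 66.1 and 67.9 TPM in AML and 50.3, 48.3 and 54.2 TPM in the MPN mice (log2 change 0.52, adjusted p = 0.0286). Every AML mouse was above every MPN mouse in both. Of 3 tested inhibitors outside the TIMP family 1 was called, 33.3% beside 30.1% of all genes tested. It was Serpine2, an inhibitor of serine proteases such as thrombin, at 17.8 ± 1.05 against 5.95 ± 0.996 TPM (SD, n = 3 each, log2 change 1.45, limma adjusted p = 0.00116). Reck, a membrane-anchored inhibitor of MMPs, and Lrp1, which clears proteases, had adjusted p of 0.664 and 0.412.

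Of 28 tested shed or cleaved substrates 4 were higher and 12 lower, 57.1% called beside 30.1% of all genes tested (20.1% higher and 10% lower), with a median change of -0.54. These counts include Mertk, Fcer2a and Hbegf, which reached the minimum level in 1 group only and so had to differ. They also share genes with the marker lists. Cd163, Csf1r and Vcam1, called lower, are macrophage markers too, and Flt3, called higher, is a dendritic cell marker too. Lag3, an inhibitory lymphocyte receptor cut by Adam10 and Adam17, stood at 4.66, 6.16 and 4.03 TPM in AML and 27.6, 26.7 and 50.5 TPM in the MPN mice (log2 change -2.55, limma adjusted p = 0.000933). Axl, a receptor kinase of phagocytes, averaged 1.90 TPM in AML and 10.9 TPM in the MPN mice (log2 change -2.05, adjusted p = 0.00125), and its relative Mertk 0.0333 and 1.85 TPM. Fcer2a, the low-affinity IgE receptor CD23 of B cells, averaged 0.0867 and 2.77 TPM. All 4 of these are known from mature macrophages or lymphocytes, whose markers were lower too, beside 10% of all genes tested: 4 of 5 tested B cell markers (27.2 to 36.6 TPM in AML and 76.8 to 102 TPM in MPN) and 7 of 8 T and NK cell markers (3.77 to 5.57 and 73.1 to 97.8 TPM). Of those tested, 3 B cell markers and 6 T and NK cell markers reached the minimum level only in MPN, so they had to differ. The part of these cells in the changes was not tested.

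Of 19 matrix substrates only 5 were abundant enough to be tested, and 4 were higher, beside 20.1% of all genes tested. The 2 chains of basement membrane collagen IV led, with Col4a2 at 21.2, 16.3 and 17.4 TPM in AML and 1.74, 1.21 and 1.66 TPM in the MPN mice (log2 change 2.93, limma adjusted p = 0.000149), and Col4a1 at 16.1, 9.53 and 10.6 against 1.21, 0.90 and 1.82 TPM (2.49, adjusted p = 0.000682). Sparc, a matricellular protein that binds collagen, averaged 13.2 and 1.92 TPM (2.38, adjusted p = 0.00444). Lamc1, a laminin chain of the same membrane, averaged 6.66 and 2.96 TPM (0.91, adjusted p = 0.0263). The fibrillar collagen genes Col1a1, Col1a2 and Col3a1 averaged at most 0.19 TPM in either group. Over all 4 lists 13 genes were called higher and 13 lower of 51 tested, 51.0% beside the 30.1% of all genes, the 3 substrates that had to differ included.

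**Figure D4:**
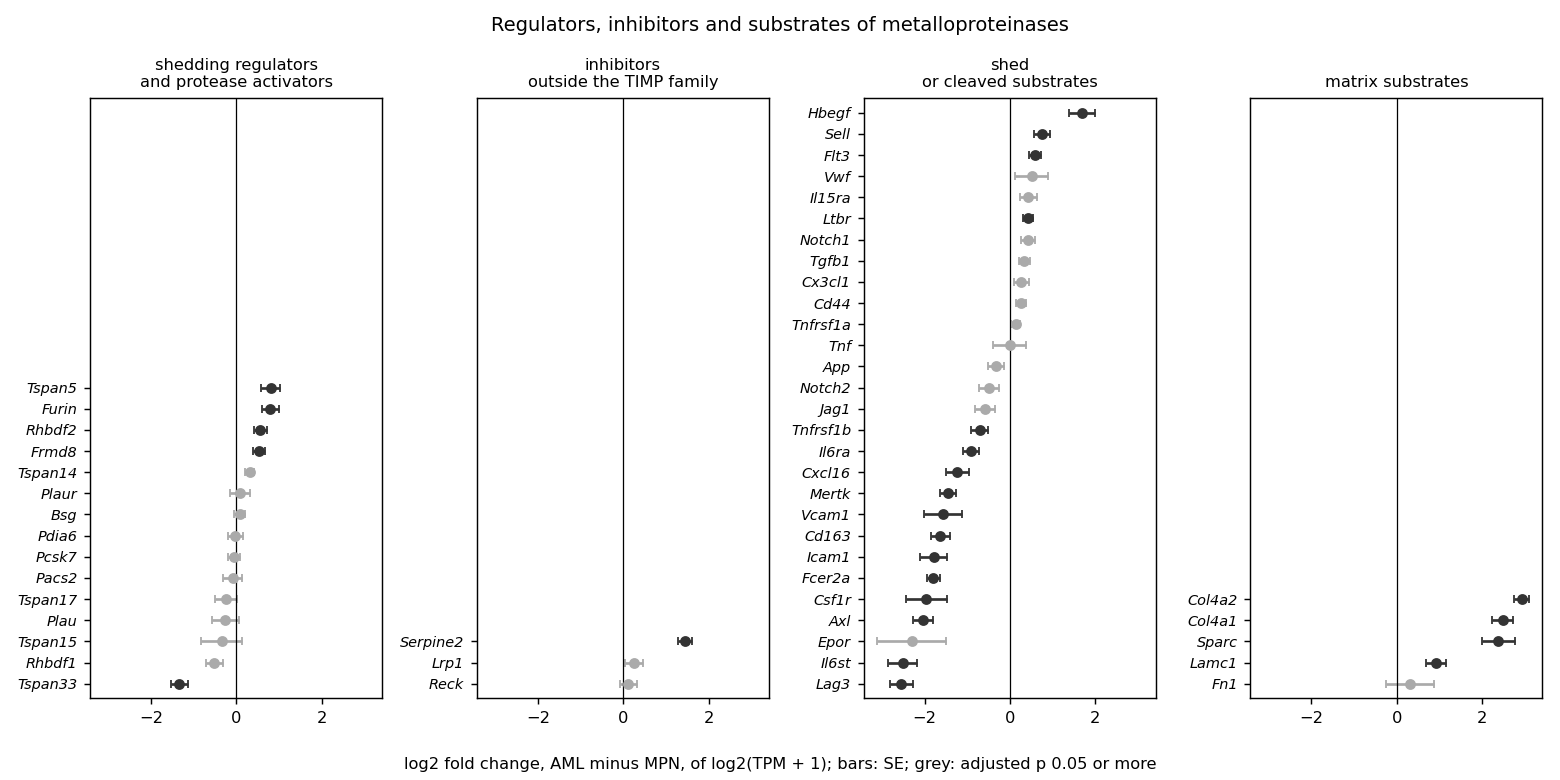
Difference between group means of log2(TPM + 1), AML minus MPN, with bars of 1 standard error, for the 51 tested genes of the 4 lists. Dark points passed the limma threshold and grey points did not. The matrix panel holds 4 dark points on the positive side, and the panel of shed substrates 12 on the negative and 4 on the positive side.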

How the data were processed

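Per gene symbol the authors deposited TPM, the gene-level output of RSEM per the file headers, in 1 column per mouse. The RPKM values were deposited by the authors per Ensembl identifier, with 1 read added to every gene. TopHat2, Bowtie2, RSEM and the builds mm9 and mm10 are named per the submitters' processing notes, with no role given. Per the labels' protocols, the paired-end libraries were strand-specific and made from poly-A RNA.

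Values were used as log2(TPM + 1). Genes reaching 1 TPM in 3 or more of 6 libraries were compared with limma 3.58.1 (R 4.3.3) by a two-sided test without covariates, with the variance trended on the mean, and adjusted by Benjamini-Hochberg over all 12223 tested genes at a threshold of 0.05. Each library is a mouse of its own by its title. TPM keeps no depth. Steps of the RPKM values gave whole reads for the 67 members in that table, within 0.01 of a whole read, used only as a description. A spreadsheet had turned 27 symbols into dates. Of 25991 RPKM identifiers 25213 matched a symbol.

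The members and lists were chosen with earlier results of these data known. Named with values were all called members, members with a mean of at least 1 TPM in either group, the Timp genes, Adam10, Adam17, Mmp2 and Mmp14, and from each list the 4 tested genes with the smallest p. Low members named from their reads, Vwf, the cell markers named with values and genes overlapping a member were chosen after their values were seen. In simulated data for the comparison of AML with MPN (12223 genes), 67% of 100 genes changed by 1 on the log2 scale and 83% of 100 changed by 2 were called, with 8 false calls. The changed genes were drawn from those above a set mean level, which low members such as Mmp12 and Adamdec1 do not reach. Far fewer genes changed there than were called in the data, so these shares do not carry over to such members. Alternatives were pseudocounts of 0.1 and 5, no minimum level or 5 TPM, the RPKM table, quantile normalization, median scaling, no trend, array weights, a term for sex, and leaving out each mouse. Positions are from GENCODE M21 (GRCm38) and promoters from RefSeq (GRCm38.p6).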

Additional observations from a re-analysis of the deposited data

How the results depend on the processing

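Of the 12 called genes, 4 (Adam11, Timp3, Adamts6 and Adamdec1) kept their call in every alternative that tested them, and 8 lost it in at least 1. With a term for sex, members called higher fell to 2 and lower to 3, all genes called to 1208, and list genes called higher to 6 and lower to 8. This fit draws its change from fewer mice. The calls of Adam22, Adam23, Mmp12, Mmp16, Mmp19, Mmp25 and Timp2 ended there, with changes of -0.77, -1.77, -1.22, 1.59, 0.98, -0.91 and 0.86 (limma adjusted p of 0.0584 to 0.202). A minimum of 5 TPM left 3 members called lower, and RPKM values left 4, since fewer members were tested (16 and 18). Leaving out 1 mouse gave 4 to 7 members higher and 6 to 7 lower, 2009 to 3705 genes called in all, and 5 to 11 list genes higher and 9 to 13 lower. The lowest total came without MPN mouse 2. Without MPN mouse 1 or 3 it was 2277 and 2280, with 7 and 5 list genes higher. Directions of genes that did not pass turned with the term for sex in Adam8 (0.17), Adamts13 (1.40), Adamts3 (-0.14), Mmp23 (0.037) and Mmp28 (0.46). They also turned in Adamts13 without AML mouse 1 (0.07), AML mouse 2 (0.41) or MPN mouse 2 (0.42), and in Mmp28 with array weights (0.16) and without AML mouse 1 (0.30). Over all left-out mice Mmp28 ranged from -0.43 to 0.30 and Adamts13 from -0.91 to 0.42. The cause was not tested. Array weights called 5436 genes, with weights whose estimation stopped short of its tolerance. They added Adam9, Adam15, Adam17 and Adam19 to the called genes (limma adjusted p of 0.0122 to 0.0476). No paired analysis was possible because the replicate numbers follow accession order. The 58 untested genes did not reach the minimum level in 3 libraries, and none exceeded 1.30 TPM.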
